A study of Rattus norvegicus with 8 samples.

Results

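Families 1 to 3 of the cytochrome P450 enzymes were examined in rat liver after a high fat diet. Every probe of the array whose RefSeq accession belongs to a rat gene named Cyp1, Cyp2 or Cyp3 with a subfamily letter and a number was taken, which gave 37 genes of the 15168 named on the array. They were measured by 45 of its 30367 probes that were not controls, and 6 of the genes had more than 1 probe. The RefSeq table holds 58 genes whose names fit this pattern, 50 of them protein coding; Cyp2b1 and Cyp2u1 are among those without a probe matched here and were not analysed.

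P450 enzymes are heme proteins of the endoplasmic reticulum that insert an oxygen atom into their substrates. They receive electrons from the P450 reductase Por and, for some reactions, from cytochrome b5. In liver, families 1 to 3 oxidise most drugs and many other foreign compounds, and also steroids, retinoids and arachidonic acid. Several are induced by foreign compounds through the receptors Ahr, Nr1i3 (CAR) and Nr1i2 (PXR). In rats a group of Cyp2c, Cyp2a and Cyp3a genes differs between the sexes under the pulse pattern of growth hormone.

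The livers came from male rats aged 22 weeks that had been fed for 14 weeks. High fat diet gave 5 samples, which the labels class as NAFLD (non-alcoholic fatty liver disease), and standard chow gave 3 samples, which served as controls. The series looked for genes of glucose and lipid handling in this disease. Strain and diet composition are not given in the sources used here. The labels also leave it unstated whether the samples were separate animals, so the p-values measure only the spread between these samples, which may be technical. Total RNA of each sample was labelled with Cy3 and read on 1 single-colour Agilent array.

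A level in what follows is log2 of a probe's processed signal minus the 75th percentile of its array. A difference is the mean level on high fat diet minus the mean level on chow. Values of single arrays are given by replicate number, 1 to 5 for high fat diet and 1 to 3 for chow. Errors of differences are standard errors (SE) or 95% intervals from limma, a linear model with moderated variances, and a probe was called at a Benjamini-Hochberg adjusted p under 0.05 over all probes tested. Levels were not compared between probes.

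The 8 arrays lay on 3 slides. High fat arrays 1 and 4 were on slide 1 and were scanned on day 2. High fat arrays 2, 3 and 5 were on slide 2 and the 3 chow arrays on slide 3, and both of these slides were scanned on day 1. No slide held both diets, so slide and diet cannot be told apart. Between 79.0% and 92.7% of probes exceeded background on a high fat array, and between 66.9% and 71.7% on a chow array. Of the hepatocyte markers Alb, Ttr, Apoa1, Tf, Serpina1 and Apoc3, 6 of 6 were well above background on all 8 arrays. Their summed unlogged level ran from 529 to 629 times the 75th percentile on high fat arrays and from 536 to 901 times on chow arrays. In bulk liver, fewer cells of a type and less RNA per cell cannot be told apart.

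None of the P450 probes passed the test between diets. Of the 45 probes, 44 were above background on enough arrays to be tested, and 0 of these 44 were called by limma, against 3.45% of all 25627 probes tested (3% called higher and 0.453% called lower). At an unadjusted p under 0.05 there were 12 of the 44 P450 probes (27.3%) and 5148 of all probes (20.1%). The smallest adjusted p among the P450 probes was 0.101, for Cyp3a18.

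The differences lay mostly on 1 side of zero. Of the 44 probes 37 (84.1%) were lower on high fat diet and 7 were higher, while 49.9% of all probes were lower, and after quantile normalization 30 of the 44 were lower. The median difference was −0.30 for the P450 probes and 0.0012 for all probes, and −0.091 for the P450 probes after quantile normalization, which gives every array the same distribution of signals. Among the 40 probes above background on all 8 arrays, 36 were lower and the median was −0.35. Every high fat array was below every chow array for 7 of the 44 probes (15.9%, against 8.93% of all probes), and every high fat array was above every chow array for 0 of the 44 (against 7.77%; 16.7% of all probes in either direction). The 7 probes measured 6 genes, namely Cyp2b15, Cyp2c7, Cyp2d3, Cyp2d4, Cyp2j3 with both of its probes, and Cyp3a18.

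**Figure D1:**
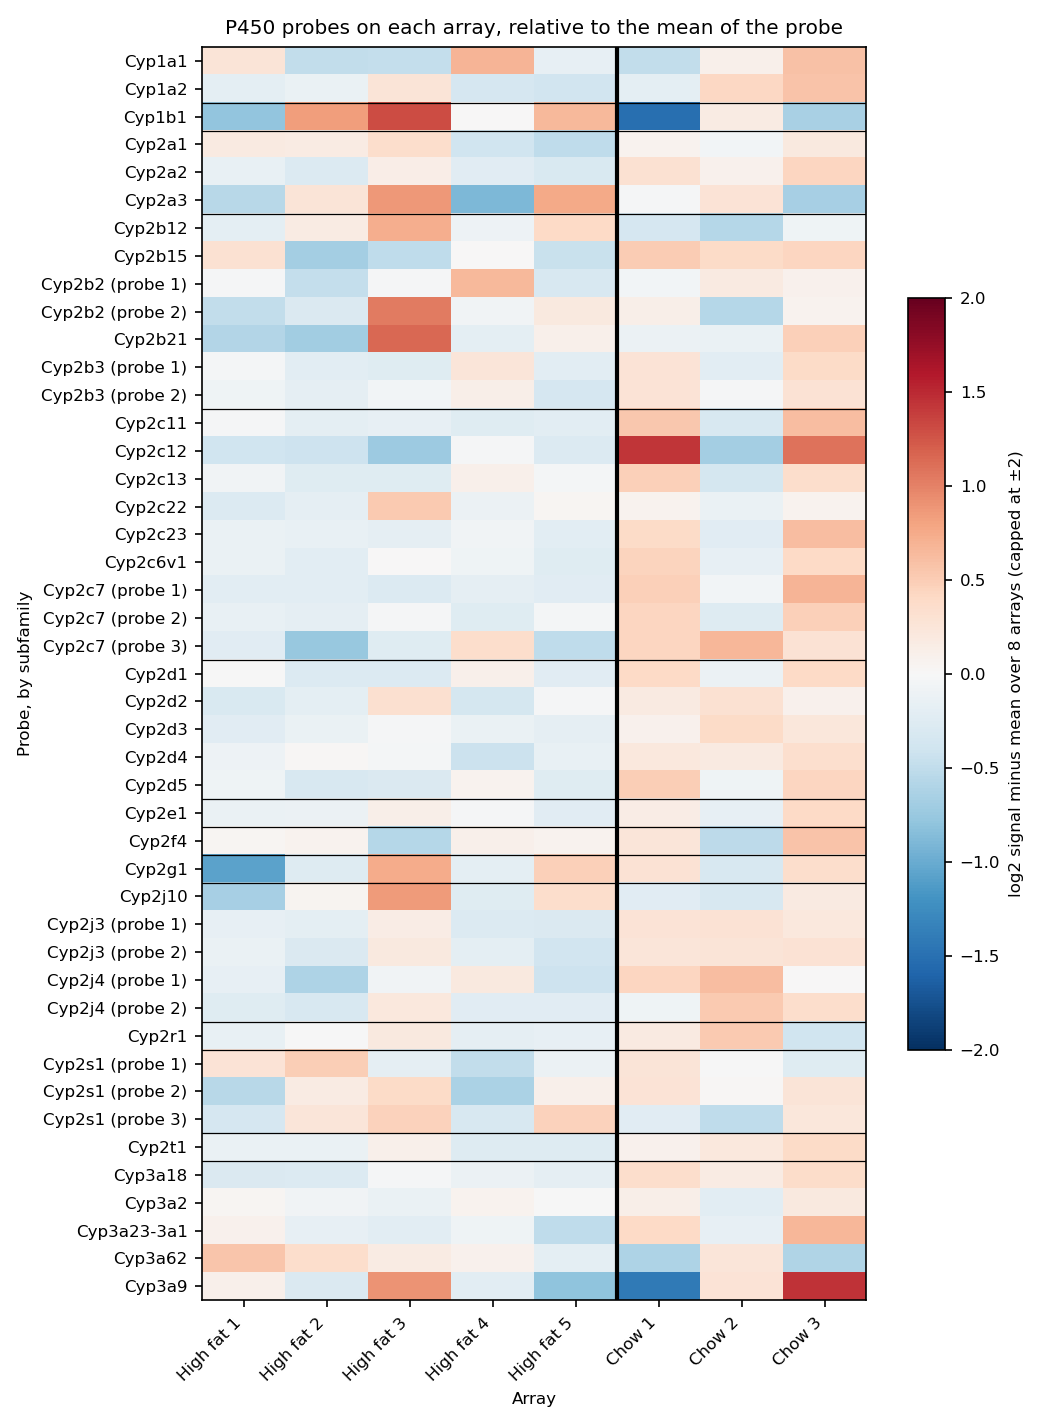
Level of each of the 45 P450 probes (rows, grouped by subfamily) on the 5 high fat and 3 chow arrays (columns), as log2 signal minus that probe's mean over the 8 arrays; colours stop at 2 above or below the mean. The Cyp2c and Cyp2d rows are mostly blue (below their mean) on the high fat arrays and red on chow 1 and chow 3, while chow 2 lies on both sides.

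**Figure D2:**
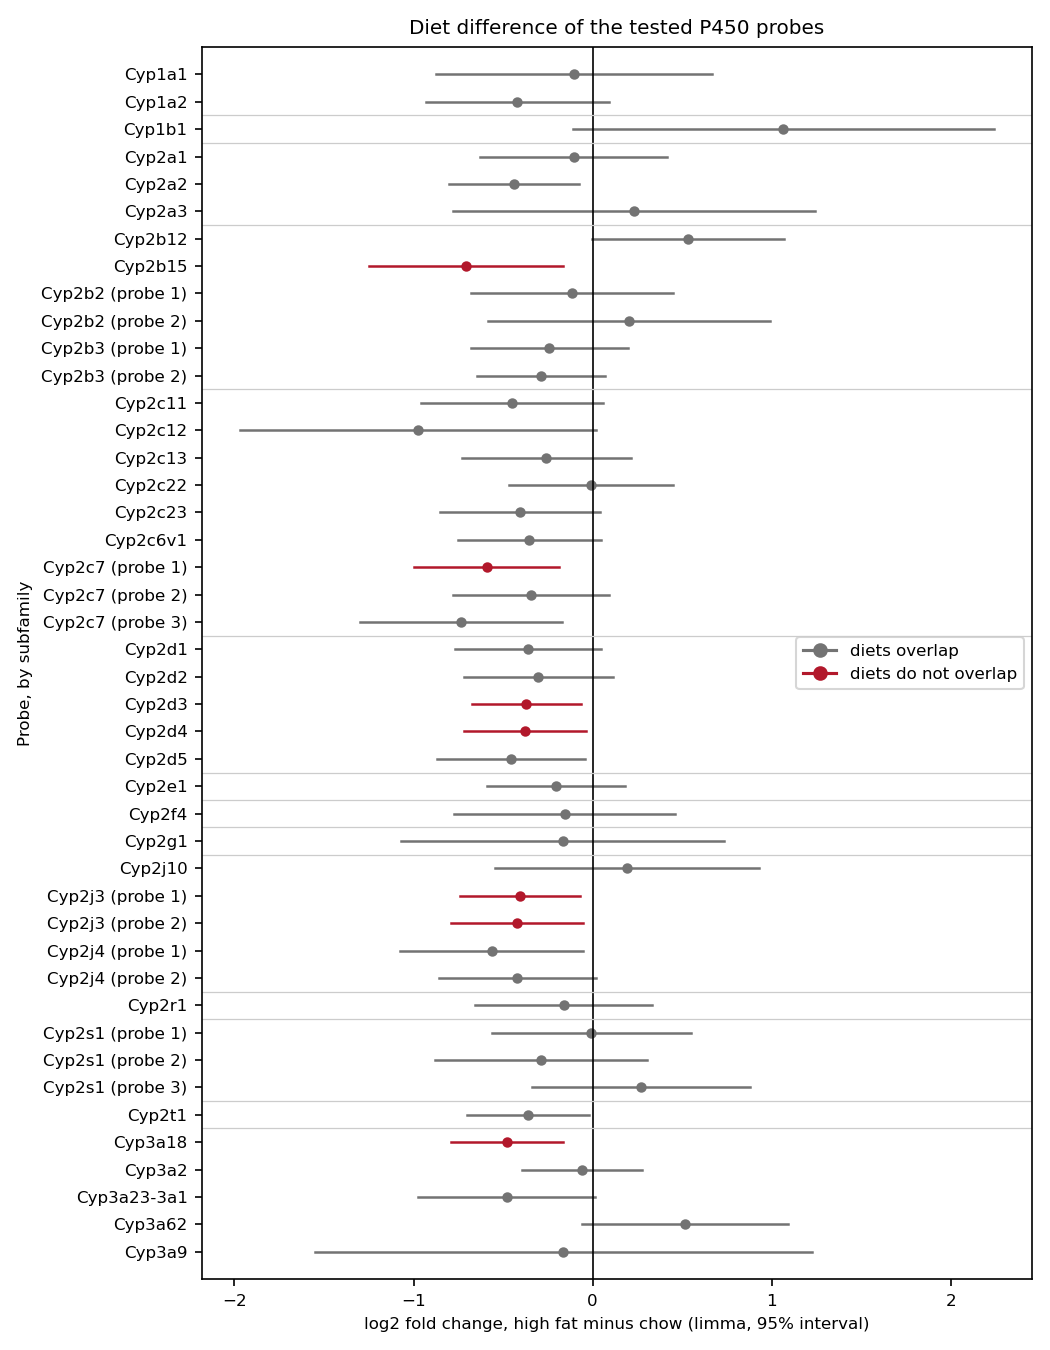
Difference between diets for the 44 tested P450 probes, as log2 fold change (high fat minus chow) with its 95% interval from limma. Red marks the 7 probes whose diets do not overlap, all lower on high fat diet; Cyp1b1, Cyp2a3 and Cyp2g1 were not well above background on any chow array, so their fitted values are not measured folds.

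Other processing brought a few P450 probes past the threshold. Quantile normalization alone gave 0 P450 calls, against 3.32% of all probes called higher and 1.2% called lower. Normexp alone gave 0, against 0.476% higher and 0.0546% lower, and normexp followed by quantile normalization gave 2 lower (Cyp2j3 and Cyp2t1), against 4.35% higher and 4.69% lower. Weighting each array by its fit gave 6 lower, for Cyp2a2, Cyp2b15, Cyp2d5, Cyp3a18 and 2 probes of Cyp2c7, against 6.62% higher and 3.87% lower. With scan day as a block Cyp2b15 and Cyp2c7 were called lower and Cyp1b1 and Cyp2b12 passed on the higher side, against 12.7% higher and 3.32% lower, and on the arrays of scan day 1 only Cyp2b15 and Cyp2c7 were called, against 10.8% higher and 1.57% lower. Cyp1b1 was above background on 0 chow arrays and Cyp2b12 on 1, so Cyp1b1 has no measured fold in that setting either, and both passed the filter mainly through high fat arrays. Leaving out chow 2 gave 2 lower (Cyp2c12 and Cyp2c7), against 1.55% higher and 0.242% lower.

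Family 1 holds the enzymes that the aryl hydrocarbon receptor Ahr induces. Cyp1a2, the main constitutive family 1 enzyme of liver, which oxidises aromatic amines and caffeine, had levels of 5.23, 5.29, 5.69, 5.10 and 5.05 on high fat arrays, against 5.24, 5.84 and 6.00 on chow arrays. Chow 1 lay inside the high fat range and the other 2 chow arrays lay above all of it. The difference was −0.42 ± 0.22 (SE, adjusted p = 0.335). Cyp1a1, which oxidises polycyclic aromatic hydrocarbons, stood at −1.68, −2.43, −2.42, −1.25 and −2.09 on high fat diet and at −2.43, −1.84 and −1.35 on chow. The diets overlapped over almost the whole range, and the interval of the difference was −0.88 to 0.67. The 2 high fat arrays of slide 1 were the highest of the 5 for Cyp1a1, by 0.85 over those of slide 2 (limma, adjusted p = 0.0305).

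Cyp1b1, a hydroxylase of estradiol and polycyclic hydrocarbons that is mostly found outside the liver, exceeded background clearly on 4 high fat arrays and on 0 chow arrays. It had levels of −6.18, −4.55, −4.09, −5.38 and −4.74 on high fat diet, against −6.90, −5.23 and −6.03 on chow, and the high fat mean was not above the lowest detectable signal of the chow arrays, so no fold is given. Within high fat diet Cyp1b1 was lower on slide 1, with a fitted difference of −1.32 from slide 2 (adjusted p = 0.0295), although high fat array 1 of slide 1 was itself not above background.

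The 3 Cyp2a genes split into a pair expressed in liver and Cyp2a3, which belongs to lung and nasal tissue. Cyp2a2, a male-predominant testosterone hydroxylase, had levels of 4.15, 4.02, 4.44, 4.08 and 4.00 on high fat diet and 4.60, 4.39 and 4.74 on chow. High fat array 3 was the only high fat array that reached above the lowest chow array, chow 2. The difference was −0.44 ± 0.16 (adjusted p = 0.175). This probe had 10 spots on each array, and their SD within an array was 0.029 to 0.069, against an SD between arrays of 0.18 on high fat diet and 0.17 on chow. Cyp2a1, which hydroxylates testosterone at another position, was at 3.68, 3.67, 3.85, 3.11 and 2.99 on high fat diet and 3.56, 3.44 and 3.69 on chow. All chow values lay inside the high fat range, with an interval of −0.63 to 0.42 for the difference. Cyp2a3 was well above background on 3 high fat and 0 chow arrays and has no measured fold.

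The Cyp2b genes include the classical targets of phenobarbital, induced through Nr1i3. Cyp2b3, a member that phenobarbital does not induce, was measured by 2 probes. Its leading probe read 6.33, 6.15, 6.12, 6.61 and 6.16 on high fat arrays and 6.64, 6.15 and 6.75 on chow arrays. Chow 2 lay inside the high fat range, and chow 1 and 3 lay just above it. The differences of the 2 probes were −0.24 ± 0.19 and −0.29 ± 0.16 (adjusted p = 0.534 and 0.345); after quantile normalization the leading probe turned to 0.082.

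Cyp2b2, a phenobarbital-inducible enzyme, had 2 probes that disagreed in direction. The leading probe stood at 3.00, 2.55, 3.00, 3.67 and 2.71 on high fat diet, against 2.98, 3.21 and 3.11 on chow. The other probe gave 0.89, 1.09, 2.42, 1.30 and 1.57 on high fat diet and 1.50, 0.81 and 1.44 on chow. The highest high fat array was array 4 on the leading probe and array 3 on the other, and the differences were −0.11 and 0.20, with intervals of −0.68 to 0.45 and −0.59 to 0.99. These intervals cover zero on both probes.

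Cyp2b15, chosen for description after its values were seen, had no overlap between diets. Its levels were −1.31, −2.30, −2.12, −1.60 and −2.07 on high fat diet and −1.10, −1.24 and −1.18 on chow. The 2 high fat arrays of slide 1 lay closest to chow, 0.71 above those of slide 2 (adjusted p = 0.0292). The difference was −0.71 ± 0.24 over all arrays (adjusted p = 0.15). It was −0.99 with the high fat arrays of slide 2 alone (adjusted p = 0.00885) and −0.28 with those of slide 1 alone (adjusted p = 0.322). Cyp2b12, a skin enzyme of arachidonic acid metabolism, was above background on 5 high fat arrays and 1 chow array. Cyp2b21 was above background on 1 high fat array and 0 chow arrays and was not tested.

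The Cyp2c genes include several of the most abundant P450 transcripts of rat liver. All 9 Cyp2c probes, for 7 genes, were lower on high fat diet with the 75th percentile scaling, while 7 of the 9 were lower after quantile normalization. The median difference was −0.40, against −0.062 after quantile normalization. None of the 9 was called. Chow 2 stood apart from the other 2 chow arrays on most of these probes.

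Cyp2c11, the main male-specific P450 of rat liver, which hydroxylates testosterone, had levels of 6.64, 6.46, 6.49, 6.41 and 6.44 on high fat diet and 7.20, 6.33 and 7.27 on chow. Chow 2 was below all 5 high fat arrays, whereas chow 1 and 3 were above all of them. The difference was −0.45 ± 0.22 (adjusted p = 0.302), and the SD was 0.089 among the high fat arrays and 0.52 among the chow arrays. Cyp2c13, also male-specific, had 6.40, 6.22, 6.23, 6.56 and 6.42 on high fat diet and 6.93, 6.12 and 6.82 on chow, with chow 2 again below and chow 1 and 3 above all high fat arrays. Its difference was −0.26 (interval −0.73 to 0.22).

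Cyp2c12, the female-specific counterpart and a steroid sulfate hydroxylase, had 1.16, 1.14, 0.84, 1.54 and 1.29 on the high fat arrays of these males, against 3.00, 0.88 and 2.64 on chow arrays. Chow 1 and 3 were far above every high fat array, and chow 2 lay inside the high fat range. Over all arrays the difference was −0.98 ± 0.44 (adjusted p = 0.256). Without chow 2 it was −1.62 ± 0.22 and passed the threshold (limma, adjusted p = 0.0197). The call thus depended on whether chow 2 was kept, and without it only chow 1 and 3 stood for the diet.

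Cyp2c7, a female-predominant enzyme that oxidises retinoic acid and steroids, was measured by 3 probes. The leading probe gave 6.71, 6.71, 6.65, 6.74 and 6.69 on high fat diet, against 7.40, 6.87 and 7.60 on chow, without overlap. On the second probe the levels were 6.22, 6.19, 6.34, 6.13 and 6.33 on high fat diet and 6.81, 6.11 and 6.84 on chow, and chow 2 fell below the high fat range. The third probe read 4.81, 4.28, 4.79, 5.39 and 4.53 on high fat diet and 5.46, 5.70 and 5.32 on chow, and there chow 2 was the highest array. The place of chow 2 thus changed among probes of 1 gene. The differences were −0.59 ± 0.18, −0.34 ± 0.19 and −0.73 ± 0.25 (adjusted p = 0.115, 0.358 and 0.151). The leading probe passed without chow 2 (−0.80, adjusted p = 0.0448), and the third passed on the arrays of scan day 1 (−0.96, adjusted p = 0.0233). After quantile normalization the differences were −0.14, −0.036 and −0.57 in the same order.

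Cyp2c6v1, a constitutive drug oxidase of rat liver, had levels of 6.00, 5.93, 6.14, 6.05 and 5.89 on high fat diet and 6.57, 5.96 and 6.52 on chow. Cyp2c23, an epoxygenase of arachidonic acid, stood at 6.37, 6.35, 6.32, 6.43 and 6.29 on high fat diet and at 6.88, 6.27 and 7.12 on chow. In both genes chow 1 and 3 were above all high fat arrays, and chow 2 was near or below the lowest high fat arrays. The differences were −0.35 for Cyp2c6v1 (interval −0.75 to 0.045) and −0.40 for Cyp2c23 (interval −0.85 to 0.041). Cyp2c22, an enzyme that hydroxylates retinoic acid, had 1.18, 1.28, 1.98, 1.35 and 1.51 on high fat diet and 1.54, 1.33 and 1.53 on chow. Its chow values all lay inside the high fat range, and the interval of the difference was −0.47 to 0.45.

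The promoters of Cyp2c7, Cyp2c11 and Cyp2c12 are shown because these sex-dependent genes of 1 cluster on chromosome 1 had the largest differences among the Cyp2c genes. Cyp3a18, on chromosome 12, is shown as the gene with the smallest adjusted p. Each sequence is the RefSeq window on GRCr8 of 250 bases before to 50 bases after the start of the gene, written 5′ to 3′ on the strand of the gene. Capitals mark TATAAA (the letters of a TATA box), the nuclear receptor site AGGTCA, the Ahr site core GCGTG and the promoter element CCAAT, each searched on both strands.
Cyp2c7, chr1:247966144-247966443, plus strand: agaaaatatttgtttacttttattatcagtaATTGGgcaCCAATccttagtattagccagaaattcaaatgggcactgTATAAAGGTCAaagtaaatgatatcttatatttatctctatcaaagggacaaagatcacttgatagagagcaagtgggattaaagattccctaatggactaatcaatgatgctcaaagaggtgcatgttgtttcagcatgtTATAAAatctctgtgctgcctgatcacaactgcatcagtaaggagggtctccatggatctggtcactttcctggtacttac
Cyp2c11, chr1:246174966-246175265, plus strand: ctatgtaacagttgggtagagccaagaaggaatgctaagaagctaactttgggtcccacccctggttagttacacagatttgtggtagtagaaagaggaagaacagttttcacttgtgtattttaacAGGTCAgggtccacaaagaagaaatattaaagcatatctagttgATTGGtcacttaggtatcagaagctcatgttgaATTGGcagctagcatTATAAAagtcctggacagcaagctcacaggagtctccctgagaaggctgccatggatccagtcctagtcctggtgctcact
Cyp2c12, chr1:248676985-248677284, minus strand: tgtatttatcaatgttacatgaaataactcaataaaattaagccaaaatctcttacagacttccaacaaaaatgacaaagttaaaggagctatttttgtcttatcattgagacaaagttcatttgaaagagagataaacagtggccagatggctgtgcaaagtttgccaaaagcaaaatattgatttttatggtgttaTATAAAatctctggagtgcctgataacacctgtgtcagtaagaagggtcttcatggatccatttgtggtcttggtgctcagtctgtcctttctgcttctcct
Cyp3a18, chr12:13994062-13994361, plus strand: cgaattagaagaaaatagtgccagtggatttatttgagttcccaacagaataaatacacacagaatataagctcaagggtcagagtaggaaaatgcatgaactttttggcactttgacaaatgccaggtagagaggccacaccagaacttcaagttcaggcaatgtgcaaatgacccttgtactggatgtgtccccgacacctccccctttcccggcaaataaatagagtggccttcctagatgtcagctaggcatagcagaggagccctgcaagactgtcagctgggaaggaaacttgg
In these windows TATAAA starts 31 bases before the start of Cyp2c7 and of Cyp2c11 and 52 bases before that of Cyp2c12. Cyp2c7 holds it a second time at 172 bases before the start, where its last base is shared with AGGTCA. None of the 4 motifs occurs in the Cyp3a18 window.

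Of the 37 genes 34 had such a window. Cyp1a1, Cyp2a2 and Cyp2c6v1 had none, so their promoters were not searched for any of the motifs. TATAAA occurred in 13 of the 34 (38.2%), against 14.2% of all 33469 RefSeq promoter windows, and AGGTCA in 12 (35.3%, against 16.2%). CCAAT was found in 17 of the 34 (50%, against 37.5%), and GCGTG in 4 (11.8%, against 29.7%). The 4 genes with GCGTG were Cyp1b1, Cyp2b2, Cyp2r1 and Cyp2t1. A match is a description of the letters, and many of these genes are near copies that share sequence, so they are not independent of each other.

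The 5 Cyp2d genes, a cluster on chromosome 7 that holds the rat relatives of the debrisoquine hydroxylase, had 1 probe each. All 5 were lower on high fat diet with the 75th percentile scaling, after quantile normalization and with a normexp (model-based) background correction, and none was called. All 5 fell in the brightest of 10 equal groups of probes by mean level. In that group 79.0% of probes were lower with the 75th percentile scaling. With normexp the Cyp2d median was −0.25, beside −0.12 for that brightest group and −0.30 for all probes. The median difference was −0.37, against −0.15 after quantile normalization. Cyp2d5 had levels of 6.46, 6.23, 6.26, 6.61 and 6.31 on high fat diet and 7.04, 6.46 and 6.98 on chow, and Cyp2d1 had 6.41, 6.15, 6.15, 6.52 and 6.20 on high fat diet and 6.83, 6.30 and 6.82 on chow. On both probes chow 1 and 3 were above every high fat array and chow 2 fell among the high fat arrays. The differences were −0.45 ± 0.18 for Cyp2d5 (adjusted p = 0.211) and −0.36 ± 0.18 for Cyp2d1 (adjusted p = 0.302).

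Cyp2d3 gave 3.26, 3.34, 3.45, 3.35 and 3.29 on high fat diet and 3.57, 3.86 and 3.70 on chow. Cyp2d4, also known as a brain P450, gave 3.13, 3.25, 3.19, 2.80 and 3.08 on high fat diet and 3.44, 3.40 and 3.56 on chow. Neither gene overlapped between diets, and chow 2 was the highest chow array for Cyp2d3 and the lowest for Cyp2d4. The differences were −0.37 ± 0.13 for Cyp2d3 (adjusted p = 0.173) and −0.38 ± 0.15 for Cyp2d4 (adjusted p = 0.205). Cyp2d2, which carries the debrisoquine 4-hydroxylase activity of rat liver, had 2.85, 2.96, 3.47, 2.80 and 3.12 on high fat diet and 3.33, 3.45 and 3.24 on chow. High fat array 3 was above all chow arrays and the other 4 high fat arrays were below them, with a difference of −0.30 (interval −0.72 to 0.11).

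Cyp2e1, which oxidises ethanol, acetone and fatty acids and is often studied in fatty liver, was not called. Its levels were 6.09, 6.10, 6.34, 6.21 and 6.00 on high fat diet and 6.37, 6.06 and 6.63 on chow. Chow 2 fell inside the high fat range, and chow 1 and 3 were above it. The difference was −0.20 ± 0.17 (adjusted p = 0.552), with an interval of −0.59 to 0.18; after quantile normalization it turned to 0.042. The SD of the 10 spots of this probe within an array was 0.11 to 0.18.

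The Cyp2j genes encode epoxygenases of arachidonic acid. Cyp2j3 had 2 probes with close differences and no overlap between diets. The leading probe gave 2.71, 2.68, 3.02, 2.61 and 2.58 on high fat diet and 3.14, 3.15 and 3.08 on chow, and the second gave 1.45, 1.29, 1.78, 1.39 and 1.21 on high fat diet and 1.82, 1.84 and 1.88 on chow. High fat array 3 was the closest to chow on both probes, and the 3 chow arrays lay within a narrow range. The differences were −0.41 ± 0.15 and −0.42 ± 0.16 (adjusted p = 0.175 and 0.194), and −0.27 and −0.34 after quantile normalization. When normexp was followed by quantile normalization the second probe passed (−0.50, adjusted p = 0.0476).

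Cyp2j4, which is expressed in liver and intestine, also had 2 probes in the same direction. The leading probe read 3.65, 3.20, 3.74, 4.00 and 3.39 on high fat diet and 4.24, 4.43 and 3.82 on chow, and the second read 1.80, 1.73, 2.26, 1.83 and 1.83 on high fat diet and 1.96, 2.57 and 2.40 on chow. Chow 2 was the highest array on both probes, and at least 1 chow array lay inside the high fat range on each. The differences were −0.56 ± 0.22 and −0.42 ± 0.19 (adjusted p = 0.211 and 0.265). Cyp2j10, the third gene of the subfamily, had a difference of 0.19 (interval −0.54 to 0.93).

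The remaining Cyp2 subfamilies had 1 gene each. Cyp2r1, a vitamin D 25-hydroxylase, had −2.40, −2.25, −2.07, −2.44 and −2.41 on high fat diet and −2.08, −1.73 and −2.65 on chow. Cyp2t1 had 1.45, 1.45, 1.69, 1.32 and 1.32 on high fat diet and 1.66, 1.79 and 1.97 on chow. The high fat values of Cyp2r1 lay inside its chow range, and those of Cyp2t1 lay below chow except on array 3, which was just above chow 1. The differences were −0.16 for Cyp2r1 (interval −0.66 to 0.33) and −0.36 ± 0.15 for Cyp2t1 (adjusted p = 0.225). Cyp2t1 passed when normexp was followed by quantile normalization (−0.43, adjusted p = 0.0387).

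Cyp2s1, mostly an enzyme of epithelia outside the liver, had 3 probes. The leading probe read −1.37, −1.14, −1.81, −2.12 and −1.74 on high fat diet and −1.38, −1.64 and −1.87 on chow, with the diets overlapping throughout. The differences of the 3 probes were −0.0065, −0.29 and 0.27 and disagreed in direction. Cyp2f4, a naphthalene-oxidising enzyme best known from lung, had 4.31, 4.33, 3.70, 4.37 and 4.33 on high fat diet and 4.51, 3.74 and 4.84 on chow. High fat array 3 and chow 2 were the lowest of their diets, and the interval of the difference was −0.77 to 0.46. Cyp2g1, an enzyme of the olfactory mucosa, was well above background on 3 high fat and 0 chow arrays. Its levels were −6.58, −5.78, −4.77, −5.71 and −5.04 on high fat diet and −5.23, −5.84 and −5.16 on chow, and it has no measured fold.

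The Cyp3a genes, a cluster on chromosome 12, hydroxylate steroids and oxidise a wide range of drugs. Cyp3a18, a male-predominant member, had levels of 5.54, 5.55, 5.81, 5.71 and 5.64 on high fat diet and 6.18, 6.00 and 6.20 on chow. All 5 high fat arrays were below all 3 chow arrays, and the SD was 0.11 within each diet. The difference was −0.48 ± 0.14, a 1.39-fold lower level (adjusted p = 0.101). The difference was −0.24 after quantile normalization (adjusted p = 0.431) and −0.37 with normexp (adjusted p = 0.236). In these settings the median of all probes was −0.024 and −0.30, and that of the brightest group −0.037 and −0.12. The SD of the 10 spots of Cyp3a18 within an array was 0.026 to 0.092.

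Cyp3a2, the main male-specific Cyp3a enzyme, was at 6.71, 6.60, 6.55, 6.75 and 6.67 on high fat diet and 6.80, 6.46 and 6.88 on chow. The diets overlapped, and the interval of the difference was −0.39 to 0.28; after quantile normalization the difference turned to 0.31. Cyp3a23-3a1, a Cyp3a enzyme induced through Nr1i2, had 6.34, 6.09, 6.05, 6.17 and 5.76 on high fat diet and 6.66, 6.10 and 6.92 on chow. Chow 1 and 3 were above all high fat arrays and chow 2 was inside their range, with a difference of −0.48 ± 0.22 (adjusted p = 0.26).

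Cyp3a62, a member known mainly from intestine, had 2.12, 1.91, 1.72, 1.65 and 1.37 on high fat diet and 0.95, 1.81 and 0.96 on chow. All high fat arrays were above chow 1 and 3, and chow 2 lay inside their range. The difference was 0.52 ± 0.25 (adjusted p = 0.296). Cyp3a9, a female-predominant enzyme, had 3.07, 2.66, 3.86, 2.74 and 2.15 on high fat diet and 1.54, 3.23 and 4.41 on chow. Its chow arrays held both the lowest and the highest value of the 8, and the interval of the difference was the widest of the 44, −1.55 to 1.22.

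Chow 2 was the lowest chow array for 27 of the 44 P450 probes, chow 1 for 10 and chow 3 for 7. This was not counted over all probes. All probes were also put in 10 equal groups by mean level. In the brightest group the median deviation from a probe's mean was −0.011 on chow 2, against 0.17 and 0.28 on chow 1 and 3. The hepatocyte markers Alb, Ttr, Apoa1, Tf, Serpina1 and Apoc3 were each lowest on chow 2 among the chow arrays. Low values on chow 2 were therefore not limited to P450 genes. Several P450 genes with a wide chow spread are known to depend on growth hormone, and 7 of 8 listed genes of growth hormone control were measured beside them. Bcl6, a repressor of female-predominant genes in male liver, had 1.94, 1.62, −0.25, 0.081 and −0.19 on high fat diet and 3.45, −0.33 and 3.72 on chow. Socs2, which damps growth hormone signalling, had −0.88, −0.64, 0.98, −1.44 and −1.23 on high fat diet and −2.97, 0.42 and −1.04 on chow. Onecut1 (HNF6), an activator of Cyp2c12, had −1.31, −1.10, 1.11, −0.31 and −0.16 on high fat diet and −2.82, 1.25 and −1.40 on chow. For Bcl6, as for Cyp2c12, chow 2 lay far below the other chow arrays, whereas for Socs2 and Onecut1 chow 2 was the highest chow array. The differences between diets were −1.64 ± 0.96, 0.56 ± 0.78 and 0.64 ± 0.88 for Bcl6, Socs2 and Onecut1, and 0 of the 7 genes was called (1 had an unadjusted p under 0.05). Socs2 and Onecut1 were picked from the list after their spread was seen. The SD among the chow arrays was 2.27, 1.70 and 2.07 for Bcl6, Socs2 and Onecut1. It was only 0.17, 0.26, 0.27 and 0.24 for Cish, Stat5a, Stat5b and Ghr, so a wide chow spread was not shared by the whole list. Ghr, the growth hormone receptor, had 3.68, 3.80, 3.69, 3.72 and 3.61 on high fat diet and 4.11, 4.13 and 3.70 on chow, a difference of −0.28 ± 0.15 (adjusted p = 0.33), with chow 3 inside the high fat range.

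**Figure D3:**
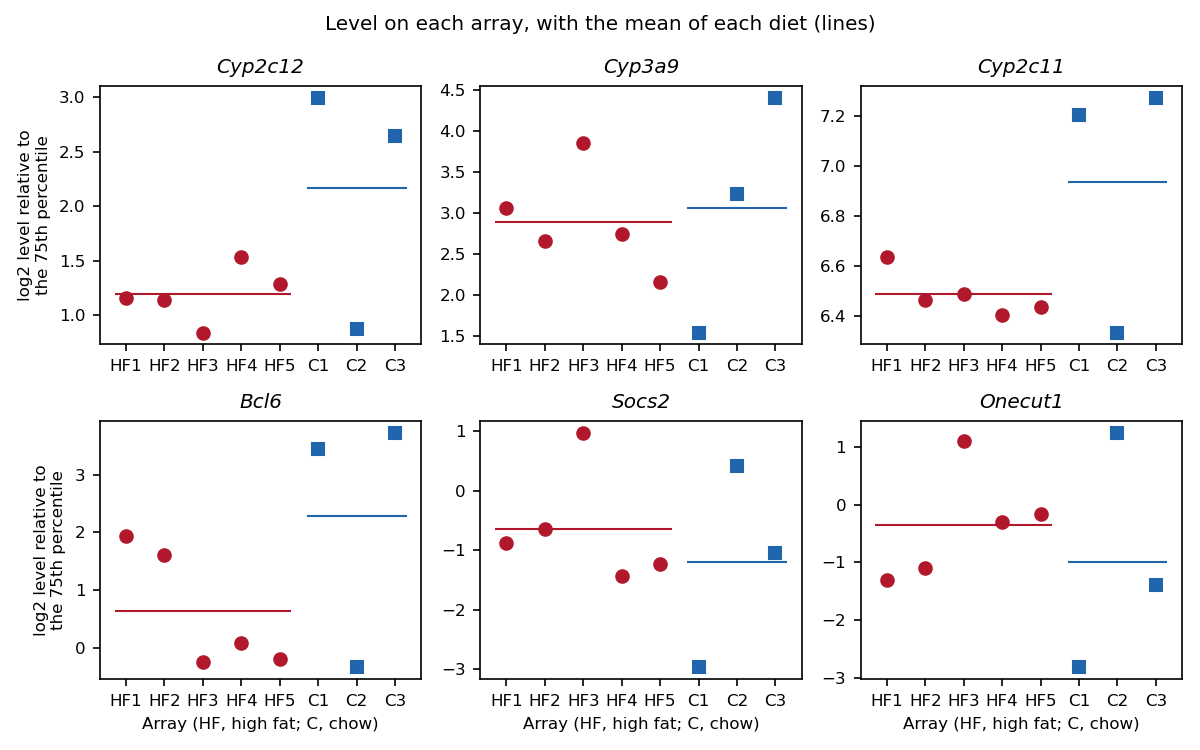
Levels (log2 relative to the 75th percentile of the array) of 3 P450 genes and 3 genes of growth hormone control on each high fat array (red circles) and chow array (blue squares), with the mean of each diet as a line; each panel has its own scale. Chow 2 lies apart from chow 1 and 3 in Cyp2c12, Cyp2c11 and Bcl6, and on the opposite side in Socs2 and Onecut1. The growth hormone genes shown had the widest chow spread of the 7 measured.

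With the 75th percentile scaling the brightest P450 probes were the lower ones, an order that turned under other normalizations. All probes tested were put in 10 equal groups by mean level over the 8 arrays, and 25 of the 44 P450 probes fell in the brightest group. All 25 were lower on high fat diet (18 of 25 after quantile normalization), with a median difference of −0.36. In that brightest group as a whole 79.0% of probes were lower, the median was −0.24, and the diets did not overlap, with high fat diet lower, for 22.8% of probes, against 4 of the 25 P450 probes (16.0%). From the dimmest to the brightest group the median of all probes ran from 0.53 to −0.24.

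Other processing moved the medians of both brightness groups. After quantile normalization the median of the 25 was −0.062, against −0.037 for the whole brightest group. With a normexp background the medians were −0.22 and −0.12, and that setting moved the median of all probes to −0.30, so that the 44 P450 probes (median −0.26) lay 0.040 above it. Of the 19 P450 probes outside the brightest group 12 were lower with the 75th percentile scaling, and their median was −0.10. Their median was −0.23 after quantile normalization, −0.31 with normexp, −0.11 with both and −0.24 in the authors' deposited table. In these 4 settings it lay below that of the 25 bright probes (−0.062, −0.22, −0.047 and −0.062). With normexp all probes were ordered this way too, with a median of −0.60 in the dimmest group and −0.12 in the brightest. After quantile normalization the median of all probes was 0.29 in the dimmest group and −0.037 in the brightest. On the arrays of scan day 1 the median of the 19 P450 probes was 0.066, with 8 of the 19 lower, against −0.37 for the 25.

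**Figure D4:**
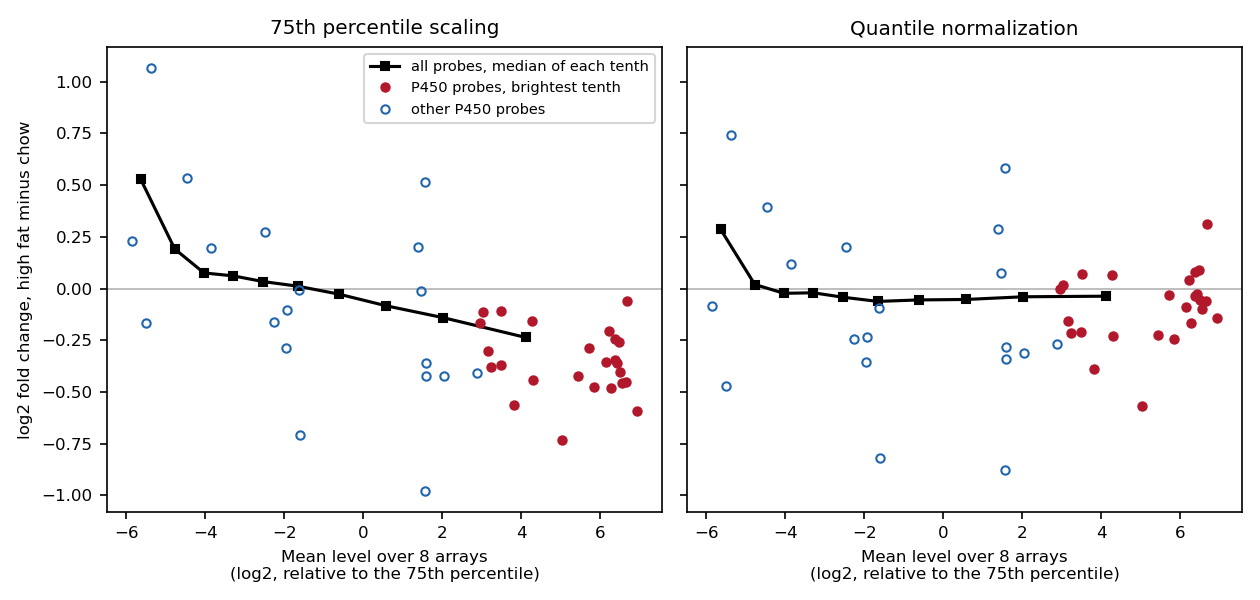
Difference between diets (log2 fold change, high fat minus chow) of the 44 tested P450 probes against their mean level over 8 arrays, with the median of all probes in each of 10 brightness groups (black squares), after 75th percentile scaling (left) and quantile normalization (right). On the left the squares run from 0.53 to −0.24 and the 25 brightest P450 probes lie below zero; on the right their median is −0.062.

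Before scaling, the signal ran the other way. The median processed signal of the 25 bright P450 probes was 35793, 42469, 58460, 41628 and 43681 intensity units on the high fat arrays, against 21804, 34888 and 20507 on the chow arrays. For 17 of the 25, and for 24 of the 44, the unscaled signal was higher on every high fat array than on every chow array. The share of all probes with this order was not counted. The 75th percentile itself was also higher on every high fat array than on every chow array, so this order is not particular to P450 probes. The 75th percentile that was subtracted was 725, 907, 1045, 732 and 873 intensity units on the high fat arrays and 300, 559 and 278 on the chow arrays. Chow 2, the brightest chow array, was also the lowest chow array for 18 of the 25 bright P450 probes. The count was not made over the whole brightest group, where the median deviation was also lowest on chow 2 among the chow arrays. The part of array brightness in the diet differences was not tested.

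Within high fat diet the 2 slides were compared as well. Of 25606 probes 27.1% were called between slide 1 and slide 2 (5.35% higher and 21.8% lower on slide 1), and 6 of the 44 P450 probes were called. Besides Cyp1a1, Cyp1b1 and Cyp2b15, given above, these were Cyp2a3 and 2 probes of Cyp2s1 (−0.81 and −0.72 on slide 1 minus slide 2, adjusted p = 0.0169 and 0.0202). Cyp2a3 was not above background on either array of slide 1, so its slide difference was not measured and is not given. The median slide difference was −0.023 for the P450 probes and −0.16 for all probes. None of the Cyp2c, Cyp2d, Cyp2j or Cyp3a probes was called between slides.

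The proteins that serve the P450 enzymes were read from lists. Calls in these lists can be set against 1.8% of the leading probes of all named genes. Among 6 electron donors 0 were called by limma, and 0 had an unadjusted p under 0.05. Por, the reductase that supplies all microsomal P450 enzymes, had 1.23, 1.28, 0.73, 1.13 and 1.29 on high fat diet and 1.39, 1.15 and 1.15 on chow, and the difference was −0.10 ± 0.17 (adjusted p = 0.815). Pgrmc1, a heme-binding partner of P450 enzymes, had 6.17, 5.86, 5.71, 6.07 and 5.82 on high fat diet and 5.93, 5.39 and 5.98 on chow. Pgrmc2, its close relative, had 4.41, 4.29, 4.24, 4.21 and 3.93 on high fat diet and 4.79, 4.51 and 4.28 on chow. All 3 of these genes overlapped between diets. Among 12 genes of heme supply and breakdown 0 were called (3 at an unadjusted p under 0.05). Alas1, the rate-limiting enzyme of heme synthesis, had 5.78, 5.71, 5.13, 5.81 and 5.72 on high fat diet and 5.98, 5.94 and 5.72 on chow, a difference of −0.25 ± 0.19 (adjusted p = 0.509). Alad, the next enzyme of the pathway, had 5.42, 5.06, 4.76, 5.31 and 4.88 on high fat diet and 5.49, 5.21 and 5.50 on chow, a difference of −0.31 ± 0.19 (adjusted p = 0.409).

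The receptors and regulators of P450 genes gave 0 calls among 14 measured genes (2 at an unadjusted p under 0.05). Cebpb, a liver transcription factor, had 5.70, 5.32, 5.13, 5.85 and 5.29 on high fat diet and 5.35, 5.21 and 5.01 on chow, a difference of 0.27 ± 0.20 (adjusted p = 0.508). Nr0b2 (SHP), a repressor of nuclear receptors, had 3.30, 3.05, 1.82, 3.56 and 3.20 on high fat diet and 4.37, 3.18 and 4.21 on chow. High fat arrays 1, 4 and 5 of Nr0b2 reached into the chow range and the difference was −0.93 ± 0.43 (adjusted p = 0.265). The receptors of the classical inducers, picked for their role after the values were seen, were Nr1i2 (−0.26 ± 0.22, adjusted p = 0.564), Nr1i3 (0.76 ± 0.34, adjusted p = 0.257) and Ahr (−0.34 ± 0.38, adjusted p = 0.683).

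Most P450 enzymes of liver are concentrated around the central vein, so genes of liver zones were counted too. Around the central vein 0 of 6 measured genes were called (2 at an unadjusted p under 0.05). Of these 6 genes 2 were lower on high fat diet, and the median difference was 0.23. Oat, an ornithine aminotransferase, had 5.09, 4.84, 5.20, 4.58 and 4.19 on high fat diet and 5.25, 5.22 and 5.47 on chow, and Glul, glutamine synthetase, had 3.56, 2.79, 3.04, 3.20 and 2.39 on high fat diet and 1.44, 2.02 and 2.09 on chow. These central genes lay on opposite sides, with differences of −0.53 ± 0.24 for Oat (adjusted p = 0.26) and 1.15 ± 0.28 for Glul (adjusted p = 0.0665), and Glul did not overlap between diets. After quantile normalization Glul passed the threshold (1.25, adjusted p = 0.0275). Around the portal vein 2 of 8 genes were called, both lower: Ass1, a urea cycle enzyme, and Gls2, liver glutaminase. Of these 8 genes 6 were lower, with a median difference of −0.35, and 4 had an unadjusted p under 0.05. Ass1 had 5.36, 5.23, 5.39, 5.50 and 5.46 on high fat diet and 6.14, 5.95 and 6.57 on chow, a difference of −0.84 ± 0.17 (adjusted p = 0.0363). Gls2 had 4.66, 4.37, 4.40, 4.74 and 4.52 on high fat diet and 5.39, 5.30 and 5.84 on chow, a difference of −0.98 ± 0.17 (adjusted p = 0.0226). Every high fat array was below every chow array in both. The portal enzymes Arg1 (6.15, 5.91, 5.67, 6.33 and 5.94 on high fat diet and 6.43, 5.83 and 6.38 on chow) and Hal (5.64, 5.66, 5.40, 5.52 and 5.48 on high fat diet and 6.04, 5.67 and 6.38 on chow) were not called, with differences of −0.22 and −0.49. With slide as a random block the 2 calls were lost (adjusted p = 0.512 for Ass1 and 0.350 for Gls2), and that of Ass1 was also lost with normexp (adjusted p = 0.125).

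**Figure D5:**
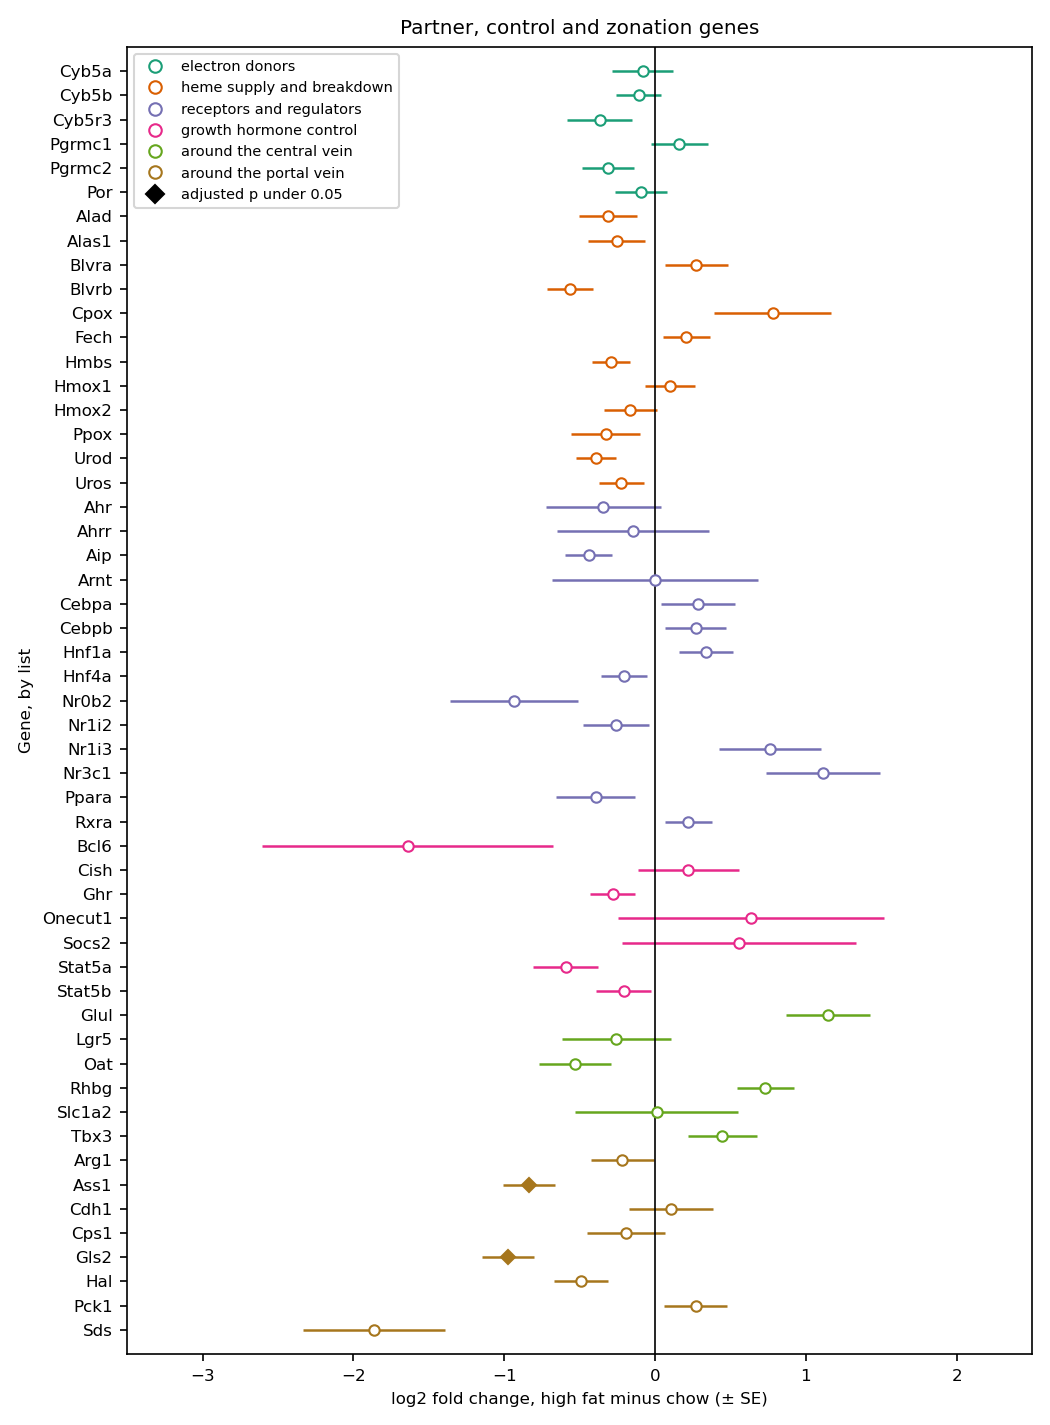
Difference between diets (log2 fold change, high fat minus chow, ± SE from limma) of the measured genes that supply electrons or heme to P450 enzymes, regulate them, or mark liver zones, coloured by list. Filled diamonds mark the 2 called genes, Ass1 and Gls2, both lower on high fat diet; 0 of the 39 genes in the first 4 lists is called.

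Markers of other cell types did not pass the test in either direction. Over 9 marker lists 0 of 36 measured genes were called, and 6 had an unadjusted p under 0.05. The 6 Kupffer cell markers summed to between 18.9 and 24.7 times the 75th percentile on high fat arrays and between 24.1 and 32.7 times on chow arrays, and the 6 stellate cell markers to between 12.9 and 18.5 times on high fat arrays and between 16.0 and 30.9 times on chow arrays. The 4 measured sinusoidal endothelium markers summed to between 39.225 and 44.998 times on high fat arrays. On chow arrays they summed to between 46.158 and 48.132 times, without overlap between diets. The sums of the other lists overlapped between diets. The 6 hepatocyte markers were all lower, with a median difference of −0.37, beside −0.36 for the 25 bright P450 probes. The part of cell makeup in the P450 differences was not tested.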

How the data were processed

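Per the submitters' processing notes, the authors read 1 single-colour array for each sample with Agilent Feature Extraction 11.0.1.1. Per the file headers, the deposited processed signal is an intensity with background subtracted and no scaling between arrays. The authors' deposited value table holds log2 values with equal 75th percentiles on all 8 arrays; how it was made is not given in the sources used here. Outlier spots (331 to 550 on an array) were left out. The remaining spots of a probe were averaged on the log2 scale, less the array's own 75th percentile. Tested probes needed 3 or more of the 8 arrays on which 0.5 or more of the spots exceeded background. Names came from RefSeq accessions matched to the GRCr8 table (18005 of 30367 probes). Array number and signal over background limit the precision.

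Diets were compared with limma 3.58.1 in R 4.3.3 (lmFit and eBayes, two-sided), adjusted over all 25627 probes. The method was tested on simulated data with the spread of each probe. There it called 21% of 100 probes changed by 1 log2 unit and 66% of 100 changed by 2, with 2 false calls. A probe that was not called may therefore still differ between diets. The simulated arrays varied independently and had no slide effect. The number of false calls therefore leaves out calls that slide differences could give in these data. Values on every array are given for called P450 genes, the highest gene of each subfamily and a list of well-known members, and for called partner genes and the 2 with the highest mean in each list. Cyp2a3, Cyp2b12, Cyp2b15, Cyp2b21, Cyp2j10 and the growth hormone genes and receptors marked so were named after their values were seen. The leading probe of a gene has its highest mean. The members and lists were chosen with earlier results of these data known. Alternatives covered background, normalization, filter, weights, slide, scan day and left-out arrays. Slide was taken from arrays that share 1 scan. Probe sequences were not used, so binding of a probe to near-identical P450 transcripts was not tested.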

Additional observations from a re-analysis of the deposited data

Results flagged for a closer look

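In 6 of 97 probes with 5 high fat values each, 1 array lay far from the other 4. Such a gap arises by chance in about 1 group in 20. Among the 44 P450 probes there were 2. Cyp2f4 was 3.70 on high fat array 3, where the nearest other value was 4.31, and the second probe of Cyp2j4 was 2.26 on array 3, with the nearest at 1.83. High fat array 3, the array with the most probes above background, was also the one set apart for Por (0.73, nearest 1.13), Alas1 (5.13, nearest 5.71) and Urod (3.65, nearest 3.84). For Ahr it was high fat array 5 (−4.19, nearest −2.83).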

How the results depend on the processing

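Across 21 alternatives, those for 36 P450 genes gave 716 values, of which 643 kept the sign and 12 passed the threshold. For 53 partner and zone genes 996 of 1058 values kept the sign. The P450 probes called numbered 0 with the settings of the report, 2 with a normexp background and quantile normalization, 6 with array weights (Cyp2a2, Cyp2b15, 2 probes of Cyp2c7, Cyp2d5 and Cyp3a18, all lower), 4 with scan day as a block (Cyp2b15 and Cyp2c7 lower, Cyp1b1 and Cyp2b12 higher) and 2 on scan day 1 arrays; with single arrays left out they ran from 0 to 2. Partner genes called were 2 with array weights, with scan day as a block, on scan day 1 arrays and with the high fat arrays of slide 1 alone, against 0. All probes called numbered 884, and 136 (normexp), 2317 (normexp and quantile), 513 (above background on all 8 arrays), 2688 (array weights), 76 (slide as a random block), 4106 (scan day block), 3159 (scan day 1 arrays) and 2003 (high fat arrays of slide 1, chosen after seeing the data). With single arrays left out the count ran from 402 (without chow 1) to 864, and was 458 without chow 2, 462 without chow 3 and 481 without high fat 2. The P450 median of −0.30 was −0.091 after quantile normalization, −0.082 with normexp and quantile, and −0.092 in the authors' table, and −0.24 to −0.38 with single arrays left out. The slide difference of −0.023 was −0.16 after quantile normalization. The cause of these shifts was not tested. With the replicate number as a block 0 probes were called. Same-numbered high fat and chow arrays deviated together at correlations of 0.045, 0.035 and 0.061, and not every array correlated best with its own number. These few small correlations cannot decide whether same-numbered samples were paired, and the sample titles give only the number.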
